A study of Mus musculus with 23 samples.

Results

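The genes described here belong to the families that drive and mark cell division: cyclins and their kinases, the replication machinery, and the proteins of centromeres, the spindle and mitotic exit. The families were picked with earlier results of these data in view, and their members by gene symbol, as every array probe with 1 annotated symbol that begins with a family prefix (Ccna, Ccnb, Ccnd, Ccne, Cdk, Cdc, Mcm or Orc followed by a digit, Rfc, Pola, Pold, Pole, Prim, Cenp, Kif, Bub, Mad2, Plk, Aurk or Top2), plus Mki67. This gave 112 of 9596 probes and 103 of 6795 genes. By role, 9 of these genes were assigned to G1, 22 to DNA replication and 32 to mitosis. The other 40 share a prefix with these families and were assigned to none of these roles. Most act elsewhere (Cdc42, for example, a small GTPase of the cytoskeleton), but some, such as Cdk7, also act on the cell cycle. All 32 mitosis genes, 21 replication genes, 7 G1 genes and 37 of the prefix-sharing genes were measured in at least 8 papilloma and 5 carcinoma pairs and were tested, 97 in all of 6413 tested genes.

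The samples were mouse skin tumours. Bigenic FVB mice carried K5rTA, a tetracycline-controlled transactivator under the keratin 5 promoter of basal keratinocytes, together with tetOTGFbeta, the TGF-beta transgene that it switches on. Monogenic control mice carried K5rTA alone. Both genotypes received 100 ug DMBA and then 5 ug TPA on the skin for 20 weeks, and doxycycline chow (1 g per kg) for 48 h before harvest. The carcinogen, the promoter, the drug and the transactivator were therefore common to both tumours of every array. The labels give an age of 7 to 12 weeks, papillomas by weeks 12 to 14 of promotion and squamous cell carcinomas (SCC) at weeks 25 to 35, with the stage read on stained sections. The time of appearance relative to the 20 weeks of TPA thus differed between the classes, and its part in class differences was not tested. Each of 23 arrays set 1 bigenic against 1 monogenic tumour of the same class, and arrays of the same 2 RNA extracts were averaged, which left 11 papilloma pairs (8 bigenic and 7 monogenic tumours) and 7 carcinoma pairs (5 bigenic and 4 monogenic tumours). Pairs are named here by the bigenic and then the monogenic tumour.

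Cells commit to division in G1, when D-type cyclins with Cdk4 or Cdk6 and then E-type cyclins release E2F factors to transcribe the replication genes. Mitotic genes are transcribed later, in G2, largely through a complex that acts at CCAAT boxes and at a short element called the CHR. TGF-beta is known to arrest epidermal keratinocytes in G1, in part through Cdk inhibitors such as Cdkn2b and through lower Myc, while late tumours often lose this response.

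The deposited values are ratios, taken to be on a log2 scale, whose numerator is not given in the sources used here. After all arrays were turned to run the same way, a negative value means less RNA in the bigenic tumour where Cy5 was divided by Cy3 and more RNA where Cy3 was divided by Cy5. Sides, not directions, are therefore given. Missing values made up 0.24% to 29.9% of an array. Tgfb1, the ligand named by the transgene, was on the positive side on 5 of 5 papilloma arrays that measured it and on 2 of 5 carcinoma arrays. The table holds no expression levels, so the tissue label could not be checked against marker levels. In RNA from whole tumours, fewer dividing cells and less of these RNAs per cell cannot be told apart.

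None of the 97 tested members passed an adjusted p of 0.05 (limma, Benjamini-Hochberg over all tested genes) in papillomas, where 0.0624% of all genes did, in carcinomas, where 0.0936% did, or for the difference between the classes, where 0.359% did. At an unadjusted p under 0.05, 16 members were on the negative side in papillomas and 0 on the positive side, against 5.47% and 4.32% of all tested genes, or 9.79% on either side. In carcinomas these counts were 15 and 1, against 6.38% and 4.44%, or 10.8% on either side. For the difference between the classes they were 3 and 1, against 4.65% and 3.07%, or 7.72% on either side, and 54 of 97 members were negative, against 51.8% of all tested genes. The papilloma count rested on few tumours. It was 5 without bigenic tumour 1762D, 6 without the pair of 1961B, 7 without the array of 1762D against 257B, and 7 or 10 without 1 of the 2 monogenic partners of 1762D, in place of 16. The carcinoma count was 10 without 1684A, 236 or 242, in place of 16. Over all fits with 1 tumour or array left out, 360 to 745 of all tested genes reached this p in papillomas, against 628 in the main fit. In carcinomas 368 to 997 did, against 694. Whether the lower member counts exceed the share of all genes was not tested. With the experiment-number range of the array as a term the papilloma count was 7. In a fit over single arrays with a dye term and a covariance share of 0.2 for tumours that recur, called the dye-term fit here, the counts were 9 and 5, all negative, against 2.99% and 2.31% of all genes on that side and 5.11% and 4.79% on either side. The share of 0.2 alone, without the dye term, gave 13 and 12. For that fit and for the range term no share of all genes is given, so their counts are not read as an excess.

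Most mitosis and replication genes had negative fitted values in both tumour classes. The median fitted log2 ratio of the mitosis genes was -0.24 in carcinomas, with 32 of 32 genes negative, and -0.13 in papillomas, with 26 of 32. Replication genes had a median of -0.12 in carcinomas (15 of 21 negative) and -0.14 in papillomas (17 of 21). G1 genes were mixed, with 4 of 7 negative in each class. Their carcinoma median of -0.25 ran from -0.40 without 257A to -0.089 without 242. Their papilloma median of -0.04 ran from -0.083 without 257CE to -0.003 without 1 of the arrays of 1762D. Prefix-sharing genes had medians of 0.02 in carcinomas and 0.00 in papillomas, with 17 of 37 negative in each. Their mean was nonetheless negative in 9 of 11 papilloma pairs, at -0.05 ± 0.05 (SD, n = 11), and in 4 of 7 carcinoma pairs, at -0.01 ± 0.11 (SD, n = 7). The papilloma means include 1 gene, Kifap3, with values down to -3.74 in single pairs, so they do not describe the group evenly. Over all tested genes the medians were -0.01 and 0.02, and 50.9% and 46.1% of genes were negative. These counts describe lists chosen with earlier results in view and carry no test. In the dye-term fit, 29 of 32 mitosis, 18 of 21 replication and 21 of 37 prefix-sharing genes were negative in carcinomas, and 24, 19 and 19 in papillomas. All tested genes were 55.1% and 52.1% negative there. On the arrays with the bigenic tumour in Cy3 alone, 26 of 32 mitosis genes were negative in carcinomas.

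Averaged over its members in each tumour pair, the mitosis family was negative in 7 of 7 carcinoma pairs, from -0.64 in 236 against 241A to -0.05 in 237 against 241A, with a mean of -0.34 ± 0.19 (SD, n = 7). The replication family was also negative in 7 of 7 carcinoma pairs, from -0.33 to -0.01, with a mean of -0.19 ± 0.13 (SD, n = 7). The carcinoma pairs are not independent, since 236 and 237 were each set against 241A and 257A, and 170 and 1684A both against 242. Papilloma pairs also share tumours, so the SDs are over pairs and not over separate tumours. Only 236 against 257A and 237 against 241A were hybridised in both dye orientations. The other carcinoma pairs had the bigenic tumour in Cy3 only. Within single carcinoma pairs, 17 to 27 mitosis genes were negative, of 29 to 32 measured. Papilloma pairs were more spread. Their mitosis mean ran from -0.93 in 1762D against 257B to 0.25 in 228B against 257CE, with 7 of 11 pairs negative and a mean of -0.20 ± 0.37 (SD, n = 11). Without the 2 pairs of tumour 1762D the papilloma mitosis mean was -0.08 ± 0.26 (SD, n = 9), and without 1961B it was -0.16 ± 0.36 (SD, n = 10). The papilloma replication mean was -0.19 ± 0.26 (SD, n = 11), and -0.10 ± 0.18 (SD, n = 9) without 1762D. Replication and mitosis means had the same sign in 9 of 11 papilloma pairs and in 7 of 7 carcinoma pairs. In 228A against 2000E the mitosis mean of 0.14 included a single Kif11 value of 7.11, while 19 of 32 mitosis genes were negative. That value enters the papilloma sign counts and means given here, and the third range of experiment number below. Papilloma arrays also fell into 3 ranges of experiment number, and the mean of the mitosis family over arrays was -0.31 in the first range (5 of 5 arrays negative), 0.05 in the second (1 of 4) and -0.16 in the third (3 of 5). The ranges of the carcinoma arrays held 8 and 1 arrays, so no comparison between ranges was possible there.

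**Figure D1:**
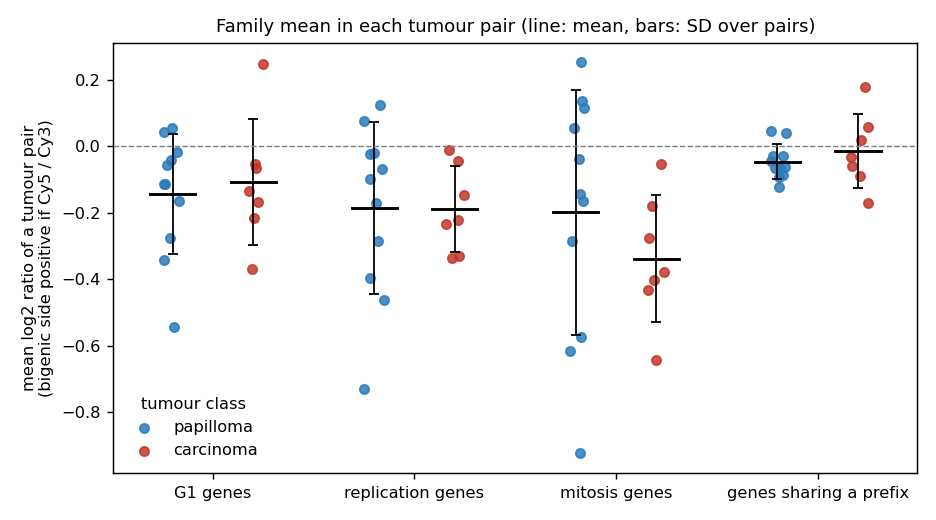
Mean log2 ratio over the measured members of a family (vertical axis) in each tumour pair, by family and tumour class. Each point is 1 pair, black lines are means and bars are SDs over 11 papilloma or 7 carcinoma pairs, some of which share a tumour. All 7 carcinoma pairs lie below 0 for replication and mitosis genes, while papilloma pairs reach from -0.93 to 0.25 for mitosis genes.

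G1 genes did not share a side. Ccnd2, a D-type cyclin that activates Cdk4 and Cdk6, was negative in 10 of 11 papilloma pairs, with a lowest value of -1.34, a median of -0.49 and a highest of 0.59 in the pair of 1961B. In carcinomas it was positive in 6 of 6 pairs that measured it, from 0.20 to 0.79 with a median of 0.52, so only 1 papilloma pair reached into the carcinoma range. Its fitted log2 ratio was -0.56 ± 0.145 (SE) in papillomas (limma, adjusted p = 0.174) and 0.49 ± 0.192 in carcinomas (limma, adjusted p = 0.329). The difference between the classes was 1.05 ± 0.241 (SE), with an unadjusted p of 0.000277 and an adjusted p of 0.0634 (limma). It had the smallest p for that difference among the 97 members, and its adjusted p ran from 0.0311 to 0.571 over the alternative settings. It passed with quantile normalization and without the pair of 1687 or the pair of 1961B. The pair of 1687 has no Ccnd2 value, so leaving it out changed only the moderation and adjustment over all genes.

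Ccnd1, the D-type cyclin most used by keratinocytes, had its negative values in both classes. In papillomas it ran from -1.68 through a median of -0.23 to 0.39, and in carcinomas from -1.79 through -0.53 to 0.53. Both ranges crossed 0, with 8 of 11 and 5 of 7 pairs negative, and the fitted values were -0.36 ± 0.203 and -0.56 ± 0.254 (SE). Ccne1, the E-type cyclin that works with Cdk2, was at -0.21 ± 0.147 in papillomas and -0.25 ± 0.17 in carcinomas. Cdk6, a kinase partner of the D-type cyclins, lay near 0 at -0.04 and 0.09. Cdk4, the other partner, had too few values for the test, but it was negative in 6 of 6 papilloma pairs, from -1.29 to -0.22, and in 1 of 4 carcinoma pairs, from -0.20 to 0.61. Apart from 228B against 257CE at -1.29, these papilloma values came from the first range of experiment number, which held no carcinoma array.

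Among inhibitors of the Cdks, Cdkn2b, which blocks Cdk4 and Cdk6, was positive in 7 of 7 carcinoma pairs, from 0.14 through a median of 0.51 to 1.17. No carcinoma pair crossed 0, yet the fitted value of 0.51 ± 0.262 (SE) had an adjusted p of 0.492 (limma). In papillomas it was negative in 6 of 11 pairs, and the mean of 0.33 ± 1.04 (SD, n = 11) rested on the pair 1762D against 257B at 3.17. Without that pair, an alternative chosen after the values were seen, the mean was 0.04 ± 0.457 (SD, n = 10). Cdkn2d, of the same inhibitor class, was negative in 6 of 7 carcinoma pairs at a fitted -0.38 ± 0.184 (SE) and near 0 in papillomas at 0.07 ± 0.154. Cdkn1c, which inhibits a wider set of Cdks, was at 0.29 ± 0.207 in papillomas and -0.39 ± 0.258 in carcinomas, a difference of -0.69 ± 0.331 (SE) with an adjusted p of 0.648 (limma). Cdkn1a, a Cdk inhibitor also induced by p53, was measured in only 7 papilloma pairs, 6 of them negative, and 3 carcinoma pairs, and was not tested.

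In replication, the Mcm helicase and the polymerases held the lowest values. Mcm5, a subunit of the helicase that unwinds DNA at origins, ran from -1.75 through a median of -0.44 to 0.39 in papillomas and from -1.07 through -0.50 to 0.43 in carcinomas. It was negative in 9 of 11 and 6 of 7 pairs, and the ranges of the classes overlapped. The fitted values were -0.58 ± 0.179 (SE) in papillomas (limma, adjusted p = 0.234) and -0.40 ± 0.223 in carcinomas (limma, adjusted p = 0.524). Of the 8 genes with an Mcm number, 6 were negative in papillomas and 7 in carcinomas. Mcm4 was at -0.40 ± 0.178 in papillomas and -0.07 ± 0.222 in carcinomas, and Mcm2, another subunit of the same ring, at -0.22 ± 0.157 and -0.50 ± 0.195. Mcm6, also of the ring, was at 0.19 in papillomas, and Mcm8, a paralog with a role in recombination, at 0.12.

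Pold3, an accessory subunit of DNA polymerase delta, had its more negative fitted value in carcinomas. Its carcinoma values ran from -1.23 through a median of -0.85 to 0.39, with 6 of 7 pairs negative, and the papilloma values from -1.81 through -0.09 to 0.59, with 6 of 11 negative. The fitted values were -0.69 ± 0.22 (SE) in carcinomas (limma, adjusted p = 0.22) and -0.16 ± 0.161 in papillomas, and their difference of -0.53 ± 0.272 had an adjusted p of 0.697 (limma). Prim1, the catalytic subunit of the primase that starts each new strand, was negative in 10 of 11 papilloma pairs at a fitted -0.40 ± 0.16 and stood at -0.08 ± 0.20 in carcinomas. Prim2, the other primase subunit, was at -0.13 ± 0.186 in papillomas and -0.62 ± 0.246 in carcinomas. Pold2, a further subunit of polymerase delta, was at -0.29 ± 0.13 in papillomas, and Pole, the catalytic subunit of polymerase epsilon, at -0.31 ± 0.168 in carcinomas. Among genes of origin recognition and firing, Cdc45, a partner of the Mcm ring in the active helicase, was at -0.27 in papillomas and 0.04 in carcinomas. Orc2 and Orc4, subunits of the origin recognition complex, were at -0.24 and -0.09 in papillomas and -0.12 and -0.23 in carcinomas. Cdc7, the kinase that fires origins, was at 0.01 and 0.04.

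The 3 lowest carcinoma values of the 97 members were those of mitosis genes. Mki67, which encodes the Ki-67 protein used to score dividing cells, was negative in 7 of 7 carcinoma pairs, with a lowest value of -2.08 in 236 against 241A, a median of -0.89 and a highest of -0.02 in 237 against 241A. In papillomas it ran from -1.13 through -0.49 to 0.41, with 7 of 11 pairs negative. The fitted values were -0.85 ± 0.226 (SE) in carcinomas (limma, adjusted p = 0.136) and -0.29 ± 0.181 in papillomas (limma, adjusted p = 0.626), and their difference of -0.57 ± 0.289 had an adjusted p of 0.682 (limma). In the dye-term fit the carcinoma value was -0.62 and the papilloma value -0.05.

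Cenpa, the histone H3 variant that marks centromeres, was also negative in 7 of 7 carcinoma pairs, from -1.91 through -1.02 to -0.21. In papillomas it was negative in 4 of 11 pairs, with a lowest value of -2.04 in 1762D against 257B, a median of 0.08 and a highest of 0.62, so the papilloma pairs lay on both sides. Its fitted carcinoma value was -0.84 ± 0.246 (SE; limma, adjusted p = 0.183), and -0.60 in the dye-term fit (limma, adjusted p = 0.958). In the 2 carcinoma pairs hybridised in both orientations, Cenpa was positive with the bigenic tumour in Cy5, at 0.26 and 0.38. The other carcinoma pairs had the bigenic tumour in Cy3 only. The papilloma value of -0.16 ± 0.197 turned to 0.18 in the dye-term fit and to 0.17 without monogenic tumour 257B, and the difference between the classes was -0.68 ± 0.315 (limma, adjusted p = 0.626). Mad2l1, which holds the spindle checkpoint until chromosomes are attached, ran from -2.03 through -0.91 to 0.22 in carcinomas and from -1.26 through -0.53 to 0.58 in papillomas. It was negative in 6 of 7 and 8 of 11 pairs, at fitted values of -0.82 ± 0.231 (limma, adjusted p = 0.168) and -0.28 ± 0.185 (SE). The carcinoma value ran from -1.16 without 237 to -0.49 without 236.

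Plk1, the Polo-like kinase that drives entry into and passage through mitosis, was on the negative side in nearly all pairs of both classes. It was negative in 10 of 11 papilloma pairs, from -1.80 through -0.48 to 0.43, and in 7 of 7 carcinoma pairs, from -0.98 through -0.51 to -0.41. The classes overlapped, at -0.50 ± 0.16 (SE; limma, adjusted p = 0.273) and -0.60 ± 0.199 (limma, adjusted p = 0.251), and in the dye-term fit the values were -0.28 and -0.38. The 4 Polo and Aurora kinases were negative in both classes. Plk4, which starts centriole duplication, was at -0.27 and -0.24, and Aurkb, the kinase of the chromosomal passenger complex, at -0.26 and -0.09 in papillomas and carcinomas.

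**Figure D2:**
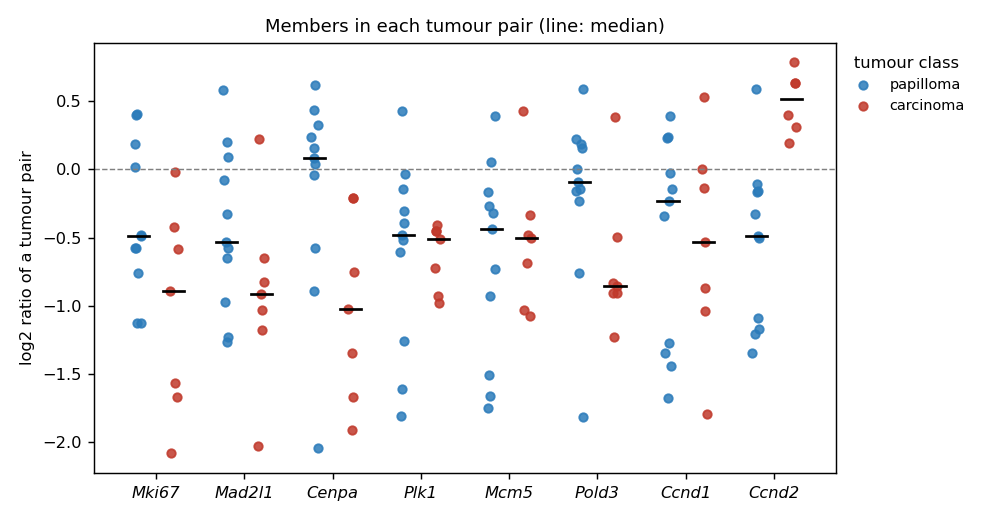
Log2 ratio (vertical axis) of 8 members in each tumour pair that measured them, papillomas in blue and carcinomas in red, with black lines at the medians. Mki67, Cenpa and Plk1 are below 0 in all 7 carcinoma pairs, and Ccnd2 is above 0 in all 6 carcinoma pairs but in 1 of 11 papilloma pairs. Pairs hybridised in both dye orientations are shown as the average of their arrays, which can differ in sign.

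At an unadjusted p under 0.05, 8 of 32 mitosis genes were negative in papillomas and 9 in carcinomas, against 5.47% and 6.38% of all tested genes, with Plk1 among both. With 1 tumour or array left out, the mitosis counts on either side ran from 2 to 12 and from 5 to 10. Those of all tested genes ran from 360 to 745 and from 368 to 997, against 628 and 694 in the main fit. In the dye-term fit 3 and 3 mitosis genes were negative at this p, against 2.99% and 2.31% of all genes. Kif22, a kinesin that binds chromosome arms, was also among both, at -0.32 ± 0.119 in papillomas and -0.33 ± 0.137 in carcinomas (SE). In papillomas the others were Kif20a, a kinesin of cytokinesis, at -0.41 ± 0.166, Cenpb, which binds centromeric repeats, at -0.43 ± 0.176, Ccna2, the A-type cyclin of S phase and G2, at -0.41 ± 0.181, Cdk1, the main mitotic kinase, at -0.53 ± 0.248, Top2a, which untangles sister DNA, at -0.40 ± 0.185, and Plk4. In carcinomas the others, beside Mki67, Cenpa and Mad2l1, were Kif23, a kinesin of the central spindle, at -0.47 ± 0.218, Cenpw, a centromere protein, at -0.43 ± 0.174, Cdc16, a subunit of the anaphase-promoting complex, at -0.39 ± 0.176, and Cdca3, a factor of mitotic entry, at -0.38 ± 0.18. Whether the sets differ was not tested. Top2a stood at -0.04 ± 0.231 in carcinomas and Ccnb2, a B-type cyclin, at -0.02 ± 0.175, the value nearest 0 of the 32. Cdc25c, a phosphatase that activates Cdk1, was at 0.14 ± 0.154 in papillomas and -0.35 ± 0.185 in carcinomas. Kif11, the kinesin that separates spindle poles, was the highest mitosis gene in papillomas at 0.52 ± 0.458, with 1 of the pairs of 228A at 7.11. Over the other 10 pairs, an alternative and a gene chosen after the values were seen, its mean was -0.07 ± 0.634 (SD, n = 10).

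**Figure D3:**
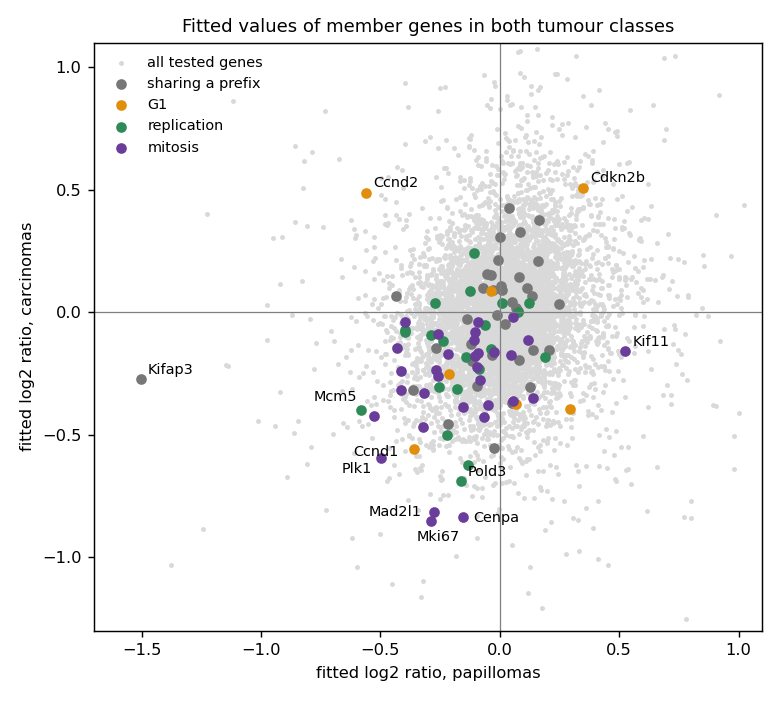
Fitted log2 ratios in papillomas (horizontal axis) and carcinomas (vertical axis), with all 6413 tested genes in grey, of which 24 lie outside the axes, and the 97 members coloured by family. The mitosis genes all lie below the horizontal line at 0, with Mki67, Cenpa and Mad2l1 lowest, and Ccnd2 lies at -0.56 and 0.49.

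Since most mitosis and replication genes were on the negative side, their promoters were compared by short motifs, from RefSeq windows of 250 bases before to 50 bases after the start of each gene (GRCm38.p6), with matches counted on both strands. An entry was found for 85 of 103 members. CCAAT was in 72.4% of mitosis promoters (21 of 29) and 60.0% of replication promoters (15 of 25), against 37.4% of 32851 promoters in the table. The CHR-like motifs TTTGAA or TTTAAA were in 79.3% of mitosis promoters (23 of 29), 7 of 25 replication promoters and 27.6% of all. Of the E2F-like motifs, TTGGCGC was in 6 of 25 replication promoters, 4 of 29 mitosis promoters and 2.45% of all. The motif TTCCCGC was in 10, 2 and 4.60%, and TTCGCGC in 3, 1 and 1.59%. Any of the 3 was in 52.0% of replication promoters (13 of 25), 20.7% of mitosis promoters and 8.07% of all. Of the 7 G1 promoters 0 held an E2F-like motif. These letters describe the windows and are not measured binding sites.

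Shown are the promoters of 3 mitosis genes that were negative in 7 of 7 carcinoma pairs and of the replication gene with the lowest papilloma value, with matched motifs in capitals. Mki67 lies at chr7:135716330-135716629 on the minus strand, Cenpa at chr5:30666636-30666935, Plk1 at chr7:122159185-122159484 and Mcm5 at chr8:75109259-75109558 on the plus strand.
Mki67: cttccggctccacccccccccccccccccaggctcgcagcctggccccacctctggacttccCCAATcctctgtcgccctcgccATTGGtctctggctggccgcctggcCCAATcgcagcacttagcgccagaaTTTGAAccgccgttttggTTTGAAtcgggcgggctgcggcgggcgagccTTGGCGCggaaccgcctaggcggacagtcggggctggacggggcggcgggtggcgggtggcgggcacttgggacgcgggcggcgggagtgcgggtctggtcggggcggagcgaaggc
Cenpa: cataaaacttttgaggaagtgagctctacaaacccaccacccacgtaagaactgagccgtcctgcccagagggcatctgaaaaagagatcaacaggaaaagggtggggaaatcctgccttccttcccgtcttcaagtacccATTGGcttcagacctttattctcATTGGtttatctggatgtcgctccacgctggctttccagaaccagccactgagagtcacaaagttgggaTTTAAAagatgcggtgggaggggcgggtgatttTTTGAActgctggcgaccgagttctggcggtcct
Plk1: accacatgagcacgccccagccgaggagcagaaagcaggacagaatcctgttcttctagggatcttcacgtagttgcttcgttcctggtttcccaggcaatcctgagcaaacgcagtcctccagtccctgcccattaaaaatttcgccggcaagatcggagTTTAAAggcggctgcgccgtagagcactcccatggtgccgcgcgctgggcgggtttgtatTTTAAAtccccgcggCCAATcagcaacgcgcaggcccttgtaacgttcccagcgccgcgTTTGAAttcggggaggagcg
Mcm5: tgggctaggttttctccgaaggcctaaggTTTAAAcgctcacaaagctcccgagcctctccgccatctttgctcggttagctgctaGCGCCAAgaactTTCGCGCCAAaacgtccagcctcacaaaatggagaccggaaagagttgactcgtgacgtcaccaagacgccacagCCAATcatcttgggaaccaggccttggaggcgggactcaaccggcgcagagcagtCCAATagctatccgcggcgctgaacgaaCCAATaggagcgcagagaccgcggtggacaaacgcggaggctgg
The Mki67 window held 3 CCAAT, 2 CHR-like and 1 E2F-like match, and that of Cenpa 2 CCAAT and 2 CHR-like matches. Plk1 had 1 CCAAT and 3 CHR-like matches. Mcm5 had 3 CCAAT, 1 CHR-like and 3 E2F-like matches, of which 2, on opposite strands, overlap.

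Among the prefix-sharing genes, Kifap3, an adaptor of the kinesin-2 motor of cilia and transport, had the lowest papilloma value of all members. It ran from -3.74 through -1.83 to 0.48, with 8 of 11 pairs negative, and the fitted value was -1.50 ± 0.389 (SE; limma, adjusted p = 0.162). Pairs fell far apart, with 3 of 11 on the positive side. In carcinomas it ran from -2.71 to 2.08 at a fitted -0.27 ± 0.485, and the difference between the classes was 1.23 ± 0.622 (limma, adjusted p = 0.671). Cdc42se1, a small effector of Cdc42, was at -0.55 ± 0.191 in carcinomas and -0.03 ± 0.153 in papillomas. Cdca7l was at -0.43 ± 0.177, Cdk7, the kinase that activates other Cdks and acts in transcription, at -0.36 ± 0.162, and Kif21a at -0.27 ± 0.156 in papillomas. Cdk16 was at -0.30 ± 0.142, Top2b, a topoisomerase present also in non-dividing cells, at -0.46 ± 0.224 and Cdk5r1, the neuronal activator of Cdk5, at -0.37 ± 0.196 in carcinomas. Of the 9 members with 2 probes each, the probes had means of opposite sign in 5 genes in papillomas and 3 in carcinomas.

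In 5 pairs the values of both dye orientations can be set side by side. As deposited, arrays of such a pair correlated across probes at r = -0.33, 0.05 and -0.03 in papillomas and -0.21 and -0.12 in carcinomas, where a full swap would give negative values. Probes are not independent replicates. Once turned, 51.0% of 27316 gene values over all tested genes were on the same side in both orientations, as were 56.9% of 144 for mitosis genes, 52.8% of 89 for replication genes and 53.1% of 32 for G1 genes. For Mki67 in 236 against 257A the values were -0.81 with the bigenic tumour in Cy3 and -0.03 in Cy5, and in 237 against 241A they were -0.32 and 0.28. Cenpa turned from -0.67 to 0.26 and from -0.79 to 0.38 in the same pairs. Plk1 kept its side in both, at -0.83 and -0.20 and at -0.76 and -0.06, but in papillomas it turned in 228A against 257B (-0.35 and 0.06) and in 228B against 257CE (-0.02 and 0.87). Over the 5 pairs Mki67 kept its side in 4, Plk1 in 3 and Cenpa in 1. The mitosis mean kept its side in 3 of 5 pairs, as in 236 against 257A at -0.27 in Cy3 and -0.26 in Cy5. It turned in 237 against 241A, from 0.01 to -0.14, and in 228A against 257B, from 0.15 to -0.06. The replication mean turned in the same 2 pairs, from 0.06 to -0.07 and from 0.04 to -0.04, and the G1 mean in 3 of 5.

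**Figure D4:**
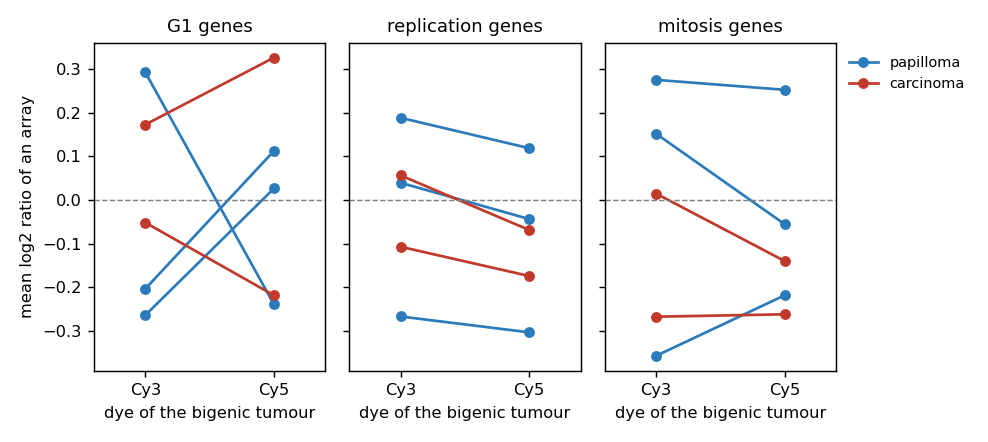
Mean log2 ratio of G1, replication and mitosis genes (vertical axis, turned to run the same way) on both arrays of each of 5 tumour pairs, by the dye of the bigenic tumour. Lines join the arrays of a pair. Lines cross 0 in 3 pairs for G1 genes and in 2 each for replication and mitosis genes, and the gap between the arrays of a pair reaches 0.53 for G1, 0.12 for replication and 0.21 for mitosis genes.

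Cell cycle genes outside the prefixes, from a list of 46 tested genes, were more often negative than positive. In papillomas 35 were negative (median -0.15) and in carcinomas 33 (median -0.10), against 46.1% and 50.9% of all tested genes. None of the 46 passed the adjusted threshold (limma). At an unadjusted p under 0.05 there were 8 negative and 0 positive in papillomas, against 5.47% and 4.32% of all tested genes. In carcinomas there were 7 and 1, against 6.38% and 4.44%. In the dye-term fit 5 were negative in papillomas and 3 in carcinomas, against 2.99% and 2.31% of all genes, and 0 and 1 were positive. Cks1b, a small subunit of Cdk complexes, was at -0.56 ± 0.169 (SE), Rrm1, a subunit of the enzyme that makes deoxynucleotides, at -0.48 ± 0.174 and Myc, a growth factor-induced transcription factor, at -0.31 ± 0.122 in papillomas, where Myc was negative in 8 of 11 pairs. Myc stood at 0.05 ± 0.152 in carcinomas. Uhrf1, which maintains DNA methylation after replication, was at -0.58 ± 0.173, Ncaph, a condensin subunit, at -0.53 ± 0.167, Anln, an actin-binding protein of the cleavage furrow, at -0.61 ± 0.22 and Gmnn, which prevents repeated origin licensing, at -0.48 ± 0.186 in carcinomas. Ccng1, a cyclin induced by p53, went to opposite sides, at -0.43 ± 0.144 in papillomas (8 of 11 pairs negative) and 0.40 ± 0.18 in carcinomas (7 of 7 positive), with a difference of 0.83 (limma, adjusted p = 0.161).

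Markers of other cells were read in the same tumours, and none passed the adjusted threshold in any comparison (limma). All 5 tested macrophage markers were positive in carcinomas at an unadjusted p under 0.05, against 4.44% of all tested genes, with a median of 0.61 and values of 0.56 to 1.25, and 4 of 5 were positive in papillomas with a median of 0.14. Their mean over carcinoma pairs ran from -0.12 to 2.28, and over papilloma pairs from -1.10 to 0.94. All 3 tested keratinocyte markers were negative in papillomas (median -0.30) and 2 of 3 in carcinomas, with means over pairs from -1.38 to 0.55 and from -0.40 to 0.39. All 6 lymphocyte markers were positive in both classes (medians 0.15 and 0.26). Of 4 skeletal muscle markers 3 were positive in papillomas, with a median of 0.78, and the mean over papilloma pairs reached 2.49. Fibroblast markers had medians of -0.28 in papillomas and 0.23 in carcinomas, and endothelial markers 0.10 and 0.25. The pair 1762D against 257B was lowest for mitosis and replication genes. It was also the lowest papilloma pair for keratinocyte (-1.38), macrophage (-1.10), fibroblast (-1.79) and endothelial (-0.37) markers. Its lymphocyte markers were at 0.75 and its muscle markers at 0.45. Its single array had the widest spread of the 23, at an SD of 1.20 over probes, and a deposited median of -0.34 before centring. The part of these cells in the cell cycle values was not tested.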

How the data were processed

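Per the labels' protocols, tumour RNA was purified with TRIzol and a column, labelled by aminoallyl coupling of Cy3 or Cy5 and hybridised to 2-colour arrays. The authors deposited 1 signed value per probe and array, taken here as log2 ratios. The numerator is, like the log base, background correction and normalization, not given in the sources used here.

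Ratios were turned by the dye of the bigenic tumour (Cy3 on 18 arrays, Cy5 on 5), centred on the array median and averaged over arrays of the same 2 extracts and over probes of a gene. For 6413 genes, class means were fitted to 18 pairs by generalised least squares, weighted by number of arrays, with a covariance for shared tumours whose share was estimated at 0. Statistics were moderated with limma 3.58.1 in R 4.3.3 and adjusted by Benjamini-Hochberg, with a threshold of 0.05. The labels do not say whether tumours sharing a number came from 1 animal. The p-values therefore measure the spread between pairs and make no allowance for tumours that recur across pairs. The number of arrays limits the precision.

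In a test on simulated data for 6413 genes, 52% of genes changed by 0.5 were recovered in papillomas and 20% in carcinomas. Of those changed by 1, 94% and 90% were recovered. The simulated noise was independent between pairs, with no dye effect and no shared tumours. It gave 185 and 159 calls, against 4 and 6 in the real fits, so the adjusted threshold was easier to pass there. The rates therefore do not tell which sizes of change could be missed in these data. Member families and gene lists were chosen with earlier results of these data known. Named genes are the 5 markers (Mki67, Mad2l1, Cenpa, Ccnd2 and Mcm5), in each family the 4 of smallest p per class and the 2 for the class difference, and 4 per class of the outside list. Others are named for context by role or by unadjusted p. Alternatives covered the dye term, spread, quantile normalization, centring, filter, weights, separate classes, tumour share, orientation, replicate unit, experiment range, probes, a replicate block and leaving out each tumour.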

Additional observations from a re-analysis of the deposited data

How the results depend on the processing

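The counts of members past the adjusted threshold stayed at 0 in papillomas under every alternative run. In carcinomas 1 member passed with unweighted pairs (Mki67), 1 with the experiment-number range as a term (Mcm2) and 6 on arrays with the bigenic tumour in Cy3 alone (Cdc42se1, Cenpa, Mad2l1, Mki67, Plk1 and Pold3), where 209 of all genes passed in place of 6. For the class difference 1 passed with quantile normalization (Ccnd2), and 0 to 1 with a tumour left out. This was Ccnd2, without the pair of 1961B or that of 1687, which has no Ccnd2 value. The range term moved the carcinoma median of replication genes to -0.40. The Cenpa papilloma value turned to 0.18 in the dye-term fit and 0.0029 with equal spread on every array, and ran from -0.24 to 0.17 with a tumour left out. The Cdkn2b papilloma value ran from -0.066 to 0.48 with a tumour left out. Both turned without 257B. The Cdk5r1 carcinoma value turned to 0.11 with the range term. The cause was not tested. Of 52 values of rule-named genes run under the alternatives, 49 kept their side. Other printed values were run in the dye-term fit, where 22 of 97 members turned in papillomas and 15 in carcinomas, from main values between -0.22 and 0.25. Among them were Cdc42se1 in papillomas (0.26), Cdk6 in carcinomas (-0.036), Cdc45 in carcinomas (-0.0076), Orc2 in carcinomas (0.0043) and Cdc7 in both (-0.087 and -0.048). Of the outside list, Myc turned in carcinomas (-0.014). With a tumour left out, 29 to 32 of 32 mitosis genes were negative in carcinomas and 20 to 29 in papillomas. The class difference then had 1 to 10 members at an unadjusted p under 0.05, in place of 4. Of all tested genes 411 to 667 reached it in those fits, in place of 495.

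With array numbers as a replicate block, 0 members passed for the class difference, and Ccnd2 stood at 1.14 (limma, adjusted p = 0.188). Of 9 same-numbered pairs of arrays 1 correlated above 0.1. Some arrays of the same 2 extracts also correlated near 0, so this cannot decide whether the numbers pair samples. The labels name different tumours on same-numbered arrays.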
